A study of Mus musculus with 8 samples.

Results

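The members described here are 39 genes known as markers of cells that a regulatory T cell sort should remove, namely neutrophils (15 genes), monocytes and macrophages (13), B cells (5), CD8 T cells and natural killer (NK) cells (4) and red cell precursors (2). Every probe annotated with one of these symbols was taken, which gave 45 of the 25697 probes on the array, for 35 of the 39 genes. No probe was listed for Ly6g, Csf1r, Cd68 or Mpeg1, so these are not analysed here. The samples were CD4+GFP+ natural regulatory T cells, sorted from C57BL/6 mice with a FoxP3-GFP reporter, in which green fluorescence marks cells that express the lineage factor FoxP3. There were 4 arrays titled G-CSF, whose treatment label is G-CSF, and 4 titled Naive, whose treatment label is saline, so the labels leave unclear whether the controls were injected. Each sample was hybridised to an Illumina MouseRef-8 v2.0 bead array in 1 colour, and no dose, time, age or pooling is given in the sources used here. The labels do not say that the replicates came from separate mice or sorts, and p-values therefore reflect only how far these 8 samples scatter, possibly for technical reasons.

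G-CSF is the growth factor that drives neutrophil production and mobilises myeloid and stem cells into blood. Myeloid, B and red cells carry lineage transcripts so abundant that a small number of stray cells, or their free RNA, can give signal in a sorted T cell sample. In bulk RNA, fewer cells of a type and less RNA per cell cannot be told apart. Some of the markers are also known outside their namesake lineage: Nkg7 in cytotoxic and activated T cells, and Fcmr, the receptor for IgM, in T cells.

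In the deposited table the detection p-values, which rate a probe against the negative controls of its array, disagree with the intensities beside them. On 8 of 8 arrays the p-value column that followed the rank order of the intensities stood next to the array with the same number in the opposite group. The p-values were joined to the intensities they follow, and the titles of the intensity columns were kept as group names. Every higher or lower below would turn if the intensity columns were the ones out of place. Between 9588 and 10519 probes were detected (p under 0.01) on an array. The median intensity was 125.4, 125.8, 180.8 and 145.0 in G-CSF replicates 1 to 4, and 117.8 to 124.7 on the Naive arrays, so raw intensities are set side by side below with this difference in view, and changes are given after normalisation.

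Transcripts of the sorted cell were detected throughout. All 20 probes of 15 genes of T cells and regulatory T cells were kept, meaning detected on at least 4 of the 8 arrays. Normalised log2 intensities of Cd3e, a chain of the T cell receptor complex, were 14.27 ± 0.14 in G-CSF and 14.35 ± 0.05 in Naive (SD, n = 4 each). Cd4, the gene of the sort gate, had 9.11, 8.79, 9.64 and 9.47 in G-CSF, against 8.60, 8.93, 8.84 and 9.08 in Naive, with a change of 0.39 ± 0.20 (SE; limma adjusted p = 0.244). Foxp3 on its brightest probe lay between 13.03 and 13.51 in G-CSF. In Naive it was 13.79, 12.12, 12.59 and 12.76 in replicates 1 to 4, so replicate 1 held the highest value of its group, as it did on the other 2 Foxp3 probes. The changes on the 3 Foxp3 probes were 0.49 ± 0.30, 0.97 ± 0.34 and 0.79 ± 0.30 on the log2 scale (SE; limma adjusted p = 0.323, 0.122 and 0.148), and 0 of the 20 probes were called.

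1 library has to be named before the results. Naive replicate 1 lay above the mean of the other 3 Naive arrays on 8 of 8 kept monocyte and macrophage probes, with a median gap of 1.47 on the log2 scale, where 43.4% of all kept probes lay above and the median gap was -0.07. In a second list of monocyte and macrophage genes, chosen for this report, the same held for 10 of 10 kept probes, with a median gap of 1.20, and in a dendritic cell list for 10 of 10, with a median gap of 1.93. The kept probes of the dendritic cell list came from 6 of its 14 genes. They include those of the class II genes H2-Ab1 (on several probes), H2-Aa and H2-Eb1, which present antigen. Of the 20 probes of that list, 10 were not detected on any array, among them, named after their values were seen, those of Itgax, Xcr1 and Clec9a. For the sorted cell genes Naive replicate 1 lay above on 9 of 20 probes, with a median gap of -0.03. That median hides Foxp3, whose gaps were 1.29 on the brightest probe and 1.37 and 0.72 on the others, against -0.35 for Cd4. On the Foxp3 probes with gaps of 1.29 and 1.37, Naive replicates 2 to 4 lay below every G-CSF array. The high values of this array were thus not confined to genes of other lineages. Among further B cell genes it did so on 3 of 3 kept probes (median gap 0.69), and among further CD8 and NK genes on 6 of 9 (0.45). Among the members it did so on 0 of 3 B cell probes (-0.39) and 2 of 3 CD8 and NK probes (0.13). For neutrophil members Naive replicate 1 lay above on 2 of 3 (0.05), and for erythroid members on 2 of 2 (0.24). Results that rest on this array are given with and without it. Where it is the highest of the controls, leaving it out widens a positive difference by construction. Where it is the lowest of them, leaving it out widens a fall in the same way.

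Of the 45 probes, 16 were detected on all 8 arrays, 20 on 0 arrays and 9 on some. For all probes of the array the share detected on all 8 was 34.9% and on 0 arrays 55.3%. The genes with no probe detected on any array numbered 13 of 35. They were the neutrophil genes Ngp, Camp, Lcn2, Mpo, Mmp8, Retnlg, Cxcr2 and Hp, the myeloid genes Itgam and Cybb, the B cell genes Ms4a1 and Pax5, and Cd8a. Many of these define their lineage: Itgam encodes CD11b, the integrin of myeloid cells, Ms4a1 encodes CD20, Pax5 is the B cell commitment factor, and Mpo and Camp are granule proteins. The number of detected member probes was 20, 18, 18 and 19 in G-CSF replicates 1 to 4, against 24, 18, 19 and 18 in Naive replicates 1 to 4. The means were 18.8 ± 0.957 in G-CSF and 19.8 ± 2.87 in Naive (SD, n = 4 each), a difference of -1 probe (2-sided exact permutation p = 0.886, adjusted p = 1 over 6 comparisons). The smallest p that 4 against 4 arrays can give is 1 in 35, and tied counts raise it. Without Naive replicate 1 the difference was 0.417 (exact permutation p = 0.914). No lineage passed this test either, with adjusted p-values from 0.857 to 1, which does not show that the numbers were equal. For the CD8 and NK probes and for the erythroid probes it could not have passed. Their exact permutation p of 0.429 was the smallest that their tied counts allowed. A single lineage at 1 in 35 would not have passed the adjustment over 6 comparisons either.

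**Figure D1:**
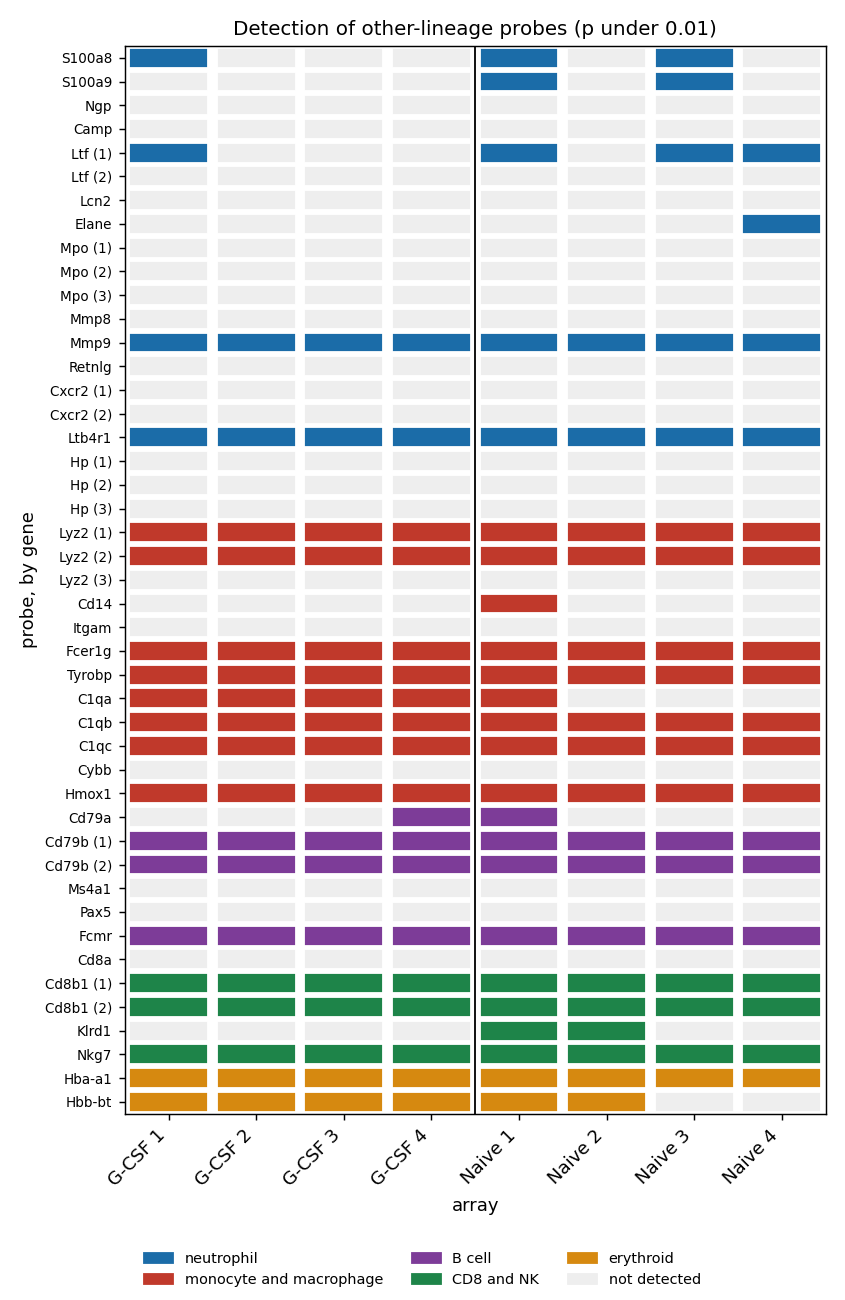
Each row is 1 of the 45 probes, ordered by lineage, and each column 1 array, with the G-CSF arrays left of the Naive arrays. A coloured cell marks a detection p under 0.01, with the colour giving the lineage, and a grey cell marks a probe not detected there. 16 rows are filled on all 8 arrays and 20 on 0 arrays.

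After the filter for detection on at least 4 arrays, 19 member probes of 16 genes could be tested of the 45, where 39.7% of all probes were kept. Of the 19, limma called 0 higher and 1 lower in G-CSF at an adjusted p under 0.05, and 2.2% of all 10205 tested probes were called, 0.951% higher and 1.24% lower. At an unadjusted p under 0.05 there were 6 of 19, against 24.9% of all tested probes. The groups did not overlap for 1 of 19, which lay lower, against 13.6% of all tested probes, 6.78% with G-CSF higher and 6.85% with G-CSF lower. Without G-CSF replicate 1, 0 of 19 were called higher and 1 lower, against 3.41% and 3.57% of all tested probes. When arrays were weighted by their quality 11 of 19 were called, 5 higher and 6 lower, against 37% of all tested probes. The median change over the 19 was 0.12 on the log2 scale and over all tested probes -0.01. The spread of the members between arrays of 1 group is given as a description, with no test made of it. Their residual SD had a median of 0.496 on the log2 scale, against 0.255 over all tested probes, at a median percentile of 93.1. Without Naive replicate 1 it was 0.255, against 0.229 over all tested probes, at a percentile of 58.3. The monocyte and macrophage probes lay at a median percentile of 97.1 with that array and 45.7 without it, so their wide spread rested on it. The erythroid probes lay at 97.5 with it and 99.2 without it, and the neutrophil probes at 85.0 and 92.0. B cell probes lay at 25.7 with it and 11.98 without it, and the CD8 and NK probes at 53.3 and 66.4. Of the 19 probes, 16 were detected on all 8 arrays. Ltf, C1qa and Hbb-bt passed the filter with fewer, mainly through the group where they were high.

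**Figure D2:**
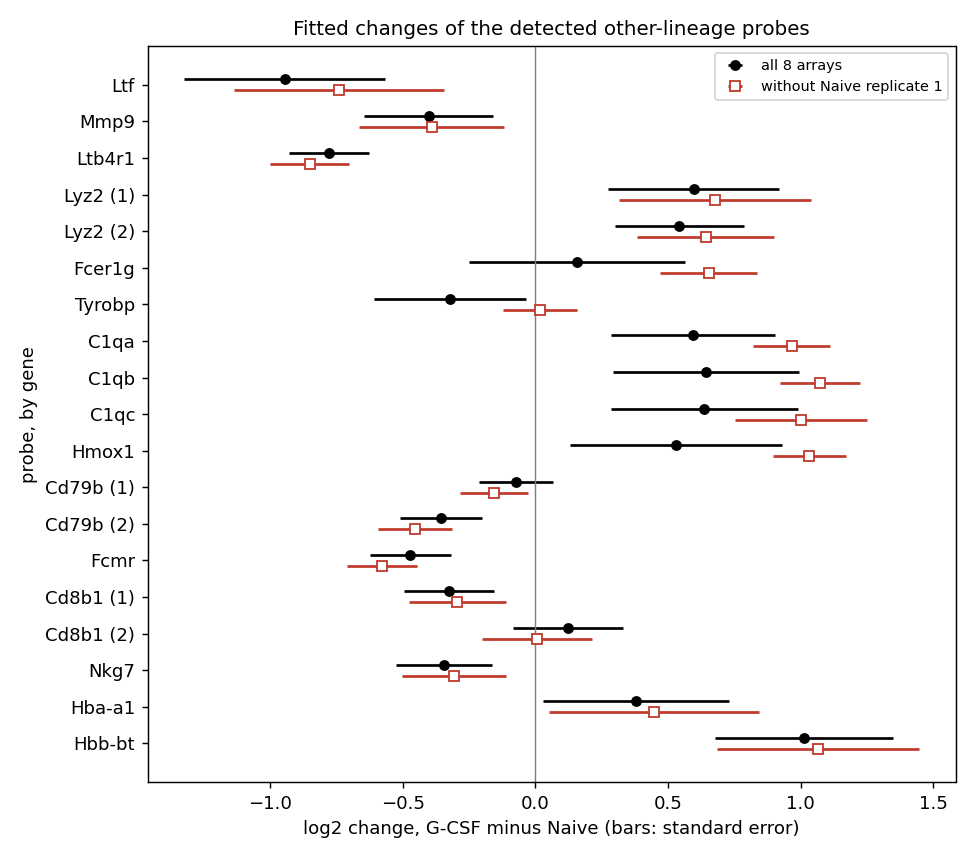
Fitted log2 changes (G-CSF minus Naive) with standard errors for the 19 tested probes, from all 8 arrays (filled) and without Naive replicate 1 (open); a number in brackets tells probes of 1 gene apart, the brighter first. The open symbols of C1qa, C1qb, C1qc, Hmox1 and Fcer1g lie to the right of the filled ones, and Ltb4r1 lies below 0 in both.

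Of the calprotectin and lactoferrin genes of neutrophils, S100a8 and Ltf were detected on some arrays of both groups, and S100a9 passed the cutoff on Naive arrays alone. The levels of these genes overlapped between the groups. S100a8 and S100a9 encode the subunits of calprotectin, the most abundant cytosolic protein of neutrophils. S100a8 had raw intensities of 262.4, 112.8, 128.3 and 112.0 in G-CSF replicates 1 to 4, against 800.7, 112.9, 536.1 and 97.3 in Naive replicates 1 to 4. It was detected on G-CSF replicate 1 and on Naive replicates 1 and 3, and nowhere else. S100a9 had intensities of 153.7, 117.0, 113.4 and 126.9 in G-CSF, against 339.2, 100.1, 270.5 and 97.0 in Naive, and was detected on the same Naive arrays alone. On G-CSF replicate 1, the highest of its group, it narrowly missed the cutoff with a detection p of 0.0125. The groups overlapped for both genes, and the arrays highest for S100a8 were also highest for S100a9. With detection on 3 and 2 arrays, neither passed the filter, so neither was tested.

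Ltf, the gene of lactoferrin in secondary granules, showed a similar order on the brighter of 2 probes. Its normalised log2 intensities were 6.45, 5.78, 5.32 and 5.30 in G-CSF, against 7.27, 5.64, 7.33 and 6.40 in Naive. Naive replicates 1 and 3 were again highest and G-CSF replicate 1 the highest of its group, and the groups overlapped. It was detected on 1 of 4 G-CSF and 3 of 4 Naive arrays, and its change was -0.95 ± 0.38 (SE; limma adjusted p = 0.160). Its other probe was not detected on any array. Elane, the gene of neutrophil elastase, was detected on Naive replicate 4 alone, at an intensity of 149.4; G-CSF replicate 3 read 180.8 on it without passing, and had the highest median intensity of the arrays. Ngp and Camp, granule genes of maturing neutrophils, did not pass on any array: Ngp had 109.4 to 137.6 in G-CSF and 101.5 to 132.6 in Naive. After normalisation both were nonetheless highest on Naive replicates 1 and 3, the arrays highest for S100a8. Log2 values there were 5.56 and 5.51 for Ngp and 5.97 and 6.19 for Camp. The G-CSF means were 4.87 ± 0.03 and 5.12 ± 0.14 (SD, n = 4). Camp came close to the cutoff on these Naive arrays, with detection p-values of 0.0150 and 0.0188. Among 16 further neutrophil genes on the array, 1 of 23 probes was kept (Il1r2, with a change of 0.53 and an adjusted p of 0.237), and 19 were not detected on any array.

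**Figure D3:**
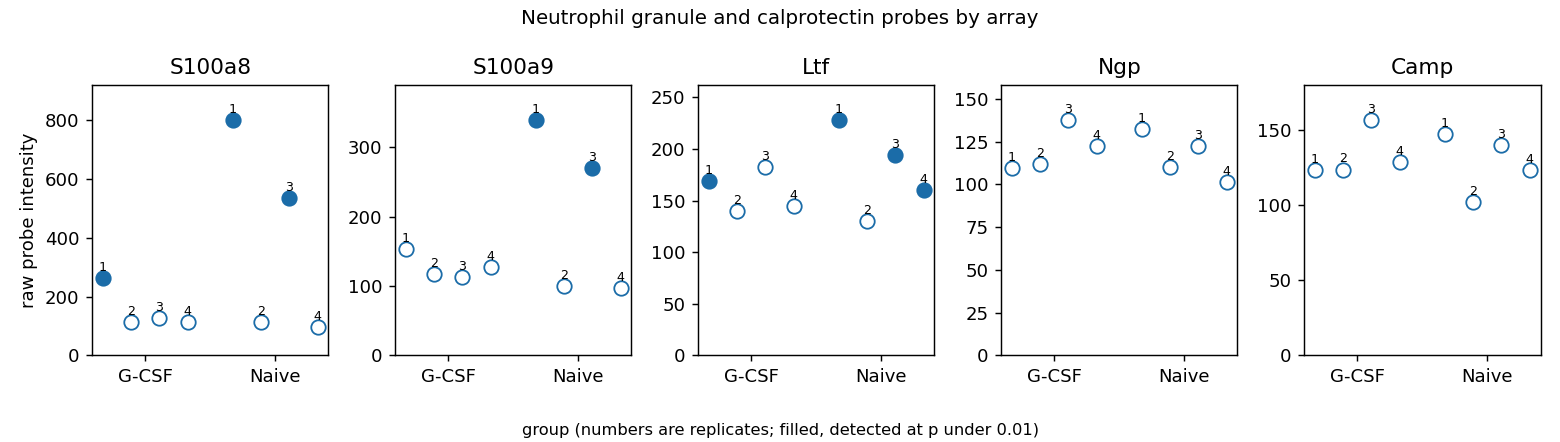
Raw probe intensity (vertical axes, from 0) of 5 neutrophil genes on each array, G-CSF left and Naive right, with replicate numbers above the points and filled points for detection. S100a8 and S100a9 are highest on Naive replicates 1 and 3, at 800.7 and 536.1 for S100a8, while Ngp and Camp have no filled point.

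The neutrophil-list genes Lcn2, Mpo, Mmp8, Retnlg, Cxcr2 and Hp were not detected on any array, while Ltb4r1 and Mmp9 were detected on all 8. Ltb4r1 encodes a receptor for leukotriene B4, a chemoattractant of neutrophils that also acts on activated T cells. Its normalised log2 intensities were 8.42, 8.03, 8.17 and 8.05 in G-CSF, against 8.73, 9.20, 8.90 and 8.96 in Naive. All G-CSF arrays lay below all Naive arrays. The fall was 0.78 ± 0.15 (SE; limma adjusted p = 0.0471), a ratio of 0.583, and it is the 1 call among the members. The call is at the edge of the threshold: over 19 alternatives its adjusted p ranged from 0.00173 to 0.246 and it was called in 8, while its change stayed between -0.86 and -0.43. With single arrays left out it was called without G-CSF replicate 1 (adjusted p = 0.0265) and without Naive replicate 1 (0.0170), and not without any of the other 6. Ltb4r1 did not share the array order of S100a8, since its lowest Naive value was in Naive replicate 1. Mmp9, a gelatinase stored in neutrophil granules and also made by other leukocytes, had 8.76, 8.83, 8.32 and 7.77 in G-CSF, against 8.86, 8.39, 9.10 and 8.95 in Naive. Those groups overlapped, and the change was -0.40 ± 0.24 (SE; limma adjusted p = 0.321).

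Of 12 monocyte and macrophage probes, 7 were detected on all 8 arrays and 2 on some, and their array order differed from that of neutrophils. The genes C1qa, C1qb and C1qc encode the chains of C1q, the recognition molecule of the classical complement pathway, made mainly by tissue macrophages. C1qb had normalised log2 intensities of 8.76, 8.51, 9.01 and 9.0 in G-CSF replicates 1 to 4, against 9.46, 7.78, 7.71 and 7.75 in Naive replicates 1 to 4. C1qc had 8.12, 7.66, 8.67 and 8.48 in G-CSF, against 8.69, 6.87, 7.34 and 7.48 in Naive. C1qa had 6.86, 6.91, 6.86 and 7.15 in G-CSF, against 7.47, 6.16, 5.77 and 6.01 in Naive, and was detected on 4 of 4 G-CSF arrays and on Naive replicate 1 alone. For each of the 3 chains, Naive replicate 1 was the highest of all 8 arrays and Naive replicates 2 to 4 lay below every G-CSF array. With all 8 arrays the changes were 0.64 ± 0.35 for C1qb, 0.64 ± 0.35 for C1qc and 0.59 ± 0.31 for C1qa (SE; limma adjusted p = 0.278, 0.284 and 0.260), so none was called.

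The stretches of 150 bases before the start sites of C1qb and C1qc are shown because these neighbouring genes moved together over the arrays. They are from RefSeq's promoter table (GRCm38.p6), which held 28 of the member genes. Capitals mark GGAA, the core bound by ETS factors such as the myeloid regulator PU.1, on either strand (TTCC on the printed one).
C1qb: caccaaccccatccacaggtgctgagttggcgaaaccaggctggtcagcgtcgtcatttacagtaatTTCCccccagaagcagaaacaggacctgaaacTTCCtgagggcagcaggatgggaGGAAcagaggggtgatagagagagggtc
C1qc: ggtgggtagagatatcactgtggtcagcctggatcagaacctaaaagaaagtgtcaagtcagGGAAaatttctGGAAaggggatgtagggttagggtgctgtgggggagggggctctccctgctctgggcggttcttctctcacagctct
The C1qb stretch is chr4:136886201-136886350 and the C1qc stretch chr4:136892915-136893064, both on the minus strand, with 3 and 2 matches. The core is short, and 80.8% of 32851 promoter stretches of this length hold it, so the matches describe these letters only.

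Hmox1, the gene of heme oxygenase 1, which macrophages use to break down heme, followed C1q. It had 7.82, 7.69, 7.90 and 7.88 in G-CSF, against 8.80, 7.0, 6.63 and 6.74 in Naive, with a change of 0.53 ± 0.40 (SE; limma adjusted p = 0.422). Fcer1g and Tyrobp encode adaptor chains that carry activating signals in myeloid and NK cells. Fcer1g had 8.59, 8.47, 8.80 and 8.58 in G-CSF, against 9.95, 8.37, 7.68 and 7.82 in Naive, with a change of 0.16 ± 0.41 (SE; limma adjusted p = 0.841). Tyrobp had 6.62, 6.85, 6.79 and 6.53 in G-CSF, against 8.03, 6.75, 6.53 and 6.76 in Naive, with a change of -0.32 ± 0.29 (SE; limma adjusted p = 0.497). In both genes Naive replicate 1 stood above all other arrays, by more than the spread of the G-CSF group.

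Lyz2, lysozyme of myeloid cells, did not follow that pattern. Its brightest probe had 9.96, 9.62, 10.70 and 10.25 in G-CSF, against 9.78, 9.13, 8.88 and 10.35 in Naive, with Naive replicate 4 highest of its group. The other kept probe had 9.87, 10.02, 9.53 and 9.64 in G-CSF, against 9.52, 9.14, 8.52 and 9.71 in Naive, and Naive replicate 4 was again the highest of its group. The changes were 0.60 ± 0.32 on that probe and 0.54 ± 0.24 on the other kept one (SE; limma adjusted p = 0.275 and 0.197), and the Lyz2 probe that was left was not detected on any array. Cd14, the monocyte receptor for endotoxin, was detected on Naive replicate 1 alone, at a raw intensity of 156.6. G-CSF replicate 3, the array with the highest median intensity, read 178.7 on it without passing. Among the other myeloid genes of the list, Itgam lay between 111.7 and 127.7 in G-CSF and between 106.9 and 109.6 in Naive, and Cybb, a subunit of the phagocyte oxidase, was likewise at background.

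**Figure D4:**
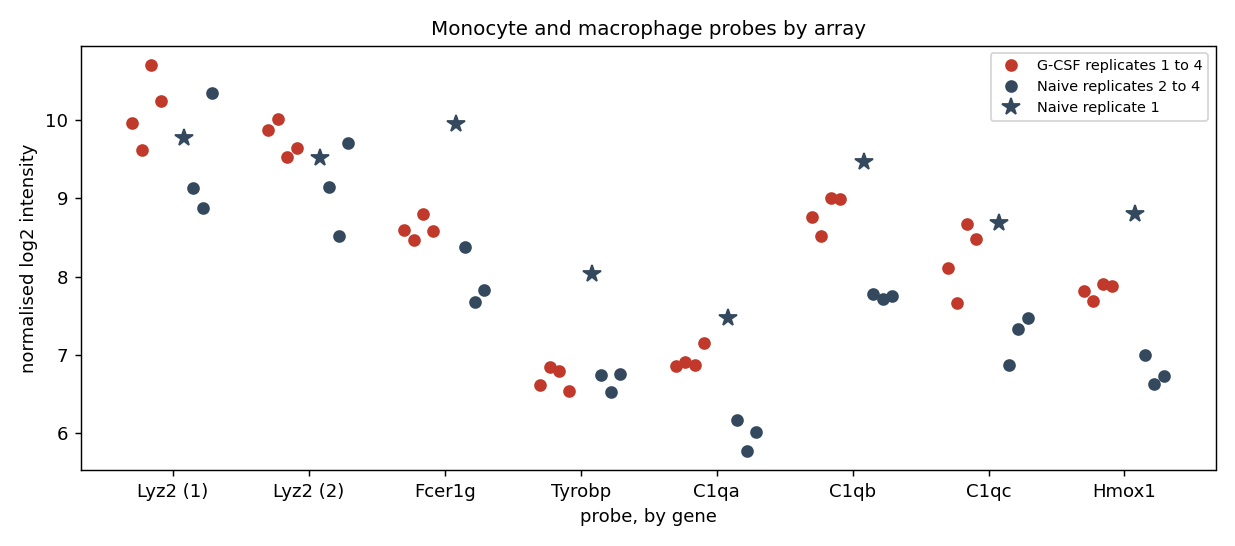
Normalised log2 intensity (vertical axis) of the 8 kept monocyte and macrophage probes on each array, G-CSF left of Naive within a gene, with Naive replicate 1 as a star. The star is the highest of all 8 points for Fcer1g, Tyrobp, C1qa, C1qb, C1qc and Hmox1 (9.95 for Fcer1g), and not for Lyz2.

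The mean normalised log2 intensity of the 8 probes was between 8.22 and 8.53 on the G-CSF arrays, and 8.96, 7.65, 7.38 and 7.83 on Naive replicates 1 to 4. The G-CSF arrays were thus close to each other, and the Naive arrays lay on both sides of them. Naive replicate 1 was singled out for its high values on these same 8 probes, so leaving it out raises their changes by construction. The shares of all tested probes given next did not pass through that choice, so they are not a like comparison. Without Naive replicate 1, 5 of the 8 probes (C1qa, C1qb, C1qc, Hmox1 and Fcer1g) had every G-CSF array above every remaining Naive array, where 14.4% of all tested probes did so. Limma then called 4 of the 8 as higher in G-CSF, where 6.04% of all tested probes were called higher. These were C1qb with 1.07 ± 0.15, Hmox1 with 1.03 ± 0.14 and C1qc with 1.00 ± 0.25 (SE, n = 4 and 3; limma adjusted p = 0.0128, 0.0128 and 0.0371), and C1qa. C1qa was not detected on any of the 3 remaining Naive arrays, so its difference has only a bound: it was at least 1.53-fold higher in G-CSF, taking as floor on each Naive array the lowest normalised signal of a detected probe or, where higher, the probe's own (limma adjusted p = 0.0128 on the measured values). It passed the filter through the G-CSF arrays, so its call is not independent of the filter. Fcer1g had 0.65 ± 0.18 (adjusted p = 0.0513), and Tyrobp 0.02 ± 0.14 (adjusted p = 0.946). The label comparison of these genes thus rested on 1 array. Without any other single array, 0 monocyte and macrophage probes were called. Whether stray macrophages or an effect on the sorted cells accounts for these values was not tested.

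Other genes of the lineage were measured on 10 of 25 probes, 8 of 18 genes, and 0 were called. Those with the smallest p were Ctss, Vcam1 and Lst1. Vcam1, an adhesion molecule of splenic and marrow macrophages among other cells, had 9.44, 9.68, 10.54 and 10.35 in G-CSF, against 10.48, 8.51, 8.65 and 8.36 in Naive. As for C1q, Naive replicate 1 was the highest of its group and the other Naive arrays lay below every G-CSF array. Unlike C1q, Vcam1 was highest of all arrays on G-CSF replicate 3. Its change was 1.00 ± 0.43 (SE; limma adjusted p = 0.187). Ctss, the cathepsin of antigen-presenting cells, had a change of 0.68 (adjusted p = 0.101), and Lst1 one of -0.32 (adjusted p = 0.199). The class II gene H2-Ab1 on its brightest probe had 8.82, 8.05, 9.08 and 8.57 in G-CSF, against 11.27, 10.13, 8.90 and 8.70 in Naive. There, unlike C1q, Naive replicate 2 was also high. The change on that probe was -1.12 ± 0.49 (SE; limma adjusted p = 0.189). The 4 H2-Ab1 probes had changes from -1.91 to -1.08 (limma adjusted p = 0.0689 to 0.194). On the probe with -1.91 every G-CSF array lay below every Naive array, as on 6.85% of all tested probes. The margin was narrow, 8.18 on G-CSF replicate 1 against 8.27 on Naive replicate 4, and the groups overlapped on the other H2-Ab1 probes.

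B cell markers were split between bright and undetected members. The proteins CD79A and CD79B form the signalling pair of the B cell receptor and are needed together there. Cd79b was detected on all 8 arrays with both of its probes. The brighter probe had 9.87, 9.80, 9.99 and 10.07 in G-CSF, against 9.76, 10.07, 10.05 and 10.16 in Naive. Cd79a was detected on G-CSF replicate 4 and Naive replicate 1 alone, with raw intensities of 121.2, 124.6, 238.5 and 184.2 in G-CSF, against 154.8, 114.8, 113.4 and 112.8 in Naive. Naive replicate 1, which detected Cd79a, had the lowest value of its group on both Cd79b probes. The dimmer probe had 8.55, 8.43, 8.76 and 8.55 in G-CSF, against 8.63, 9.18, 8.87 and 9.04 in Naive, with overlapping groups. The Cd79b probes changed by -0.07 ± 0.14 and -0.36 ± 0.15 (SE; limma adjusted p = 0.775 and 0.185). Ms4a1 lay between 106.9 and 144.8 in G-CSF and between 107.6 and 140.6 in Naive, and Pax5 was at background too. Of 21 probes of further B cell genes 3 were kept, those of Mzb1, Pou2af1 and Ly6d, and 0 were called (adjusted p = 0.430, 0.762 and 0.990). The sequences of these probes were not used here.

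Fcmr had 11.34, 11.23, 11.50 and 11.30 in G-CSF, against 11.49, 11.77, 11.96 and 12.03 in Naive. The groups touched through G-CSF replicate 3 and Naive replicate 1. The change was -0.47 ± 0.15 (SE; limma adjusted p = 0.0991). Without Naive replicate 1 it was -0.58 ± 0.13 with an adjusted p of 0.0287, where 4.63% of all tested probes were called lower. That array had the lowest Fcmr value of its group, so leaving it out widens the fall by construction. Without any other single array Fcmr was not called (limma adjusted p = 0.111 to 0.251). The residual SDs of Fcmr and of both Cd79b probes lay at percentiles from 13.4 to 27.4, so these genes varied little between arrays.

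Among CD8 and NK genes the pattern was the same kind of split. Cd8a and Cd8b1 encode the chains of the CD8 coreceptor of cytotoxic T cells. Cd8a was not detected on any array, with 97.9 to 119.4 in G-CSF and 81.5 to 107.5 in Naive. Cd8b1 was detected on all 8 arrays with both probes. The brighter lay between 10.97 and 11.59 in G-CSF, with a mean of 11.25 ± 0.31, and between 11.42 and 11.69 in Naive, with a mean of 11.57 ± 0.13 (SD, n = 4 each), and the groups overlapped. The dimmer had 7.95, 7.42, 7.93 and 7.48 in G-CSF, against 7.23, 7.30, 7.95 and 7.82 in Naive. The change of the brighter probe was -0.33 ± 0.17 and that of the dimmer probe 0.12 ± 0.21 (SE; limma adjusted p = 0.258 and 0.743), so the probes of the gene differed in sign without passing the test. Nkg7, a granule membrane protein of cytotoxic cells, had 10.36, 10.03, 10.40 and 9.75 in G-CSF, against 10.59, 10.65, 10.17 and 10.50 in Naive, with a change of -0.34 ± 0.18 (SE; limma adjusted p = 0.262).

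Klrd1, which encodes the NK receptor chain CD94, was another marker of single arrays. Its raw intensities were 137.5, 140.6, 214.2 and 158.3 in G-CSF, against 373.3, 242.6, 123.3 and 142.3 in Naive. It was detected on Naive replicates 1 and 2 alone, the arrays that were also highest for H2-Ab1. In a second list of CD8 and NK genes 9 of 23 probes were kept and 0 called. That list is not separate from the members, since the kept Tyrobp probe is in both. Its genes with the smallest p were Ccl5 at 0.58 (limma adjusted p = 0.123), Ccl4 at -0.55 on its brighter probe (0.305) and Prf1 at -0.33 (0.354). Of the 23 probes, 12 were not detected on any array.

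Haemoglobin transcripts were detected in both groups and varied widely between arrays of the same group. Hba-a1 encodes an alpha globin chain and Hbb-bt a beta globin chain of adult haemoglobin, and both have near-identical gene copies, so the probes may read more than the named gene. Hba-a1 had 10.34, 8.90, 9.08 and 8.85 in G-CSF, against 9.11, 9.45, 8.92 and 8.16 in Naive. Hbb-bt had 7.91, 6.98, 6.76 and 6.62 in G-CSF, against 6.22, 6.84, 5.73 and 5.44 in Naive, and was detected on 4 of 4 G-CSF arrays and on Naive replicates 1 and 2, so its change is set in part against arrays where it was not above background. Within each group the same array was highest for both globins, G-CSF replicate 1 and Naive replicate 2, and in both groups replicate 4 was the lowest. The change was 0.38 ± 0.35 for Hba-a1 and 1.01 ± 0.34 for Hbb-bt (SE; limma adjusted p = 0.513 and 0.106), so neither was called. Without G-CSF replicate 1 the change of Hba-a1 was 0.03, and that of Hbb-bt 0.73 (limma adjusted p = 0.948 and 0.140). None of the 15 probes of 11 other red cell genes was detected on any array, among them, named after their values were seen, Alas2, Slc4a1 and Klf1, known markers of the red cell lineage.

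The promoters of these globin genes are shown because both globins had the same highest and lowest array within each group, with capitals for CACCC and CCAAT on either strand (ATTGG is CCAAT on the other strand), elements long known from globin promoters.
Hba-a1: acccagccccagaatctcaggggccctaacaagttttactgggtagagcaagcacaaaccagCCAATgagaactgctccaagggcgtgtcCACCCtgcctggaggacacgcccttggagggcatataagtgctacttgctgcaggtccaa
Hbb-bt: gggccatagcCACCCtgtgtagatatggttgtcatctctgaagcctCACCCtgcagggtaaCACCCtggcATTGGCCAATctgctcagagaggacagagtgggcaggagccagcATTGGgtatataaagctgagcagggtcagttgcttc
The Hba-a1 stretch is chr11:32283522-32283671 on the plus strand and the Hbb-bt stretch chr7:103813924-103814073 on the minus strand (GRCm38.p6). CACCC occurred once in the first and 3 times in the second, and 37.4% of all such stretches hold it. CCAAT occurred once in the first and 3 times in the second, with 2 matches side by side in Hbb-bt, and 24.5% of all stretches hold it.

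**Figure D5:**
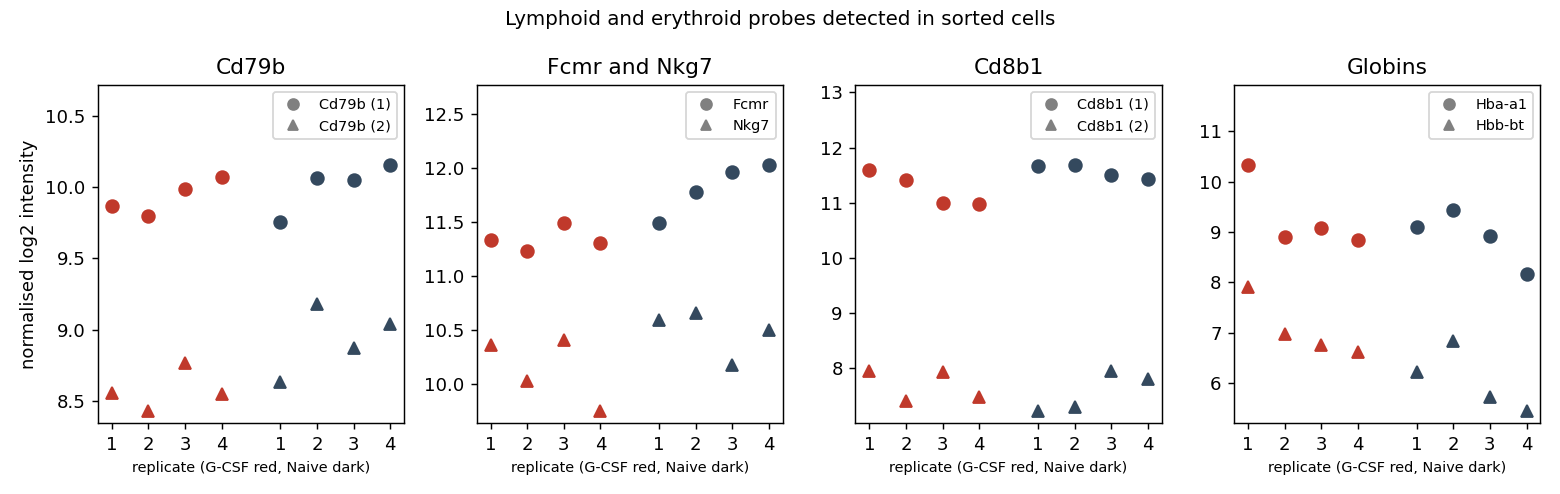
Normalised log2 intensity (vertical axes, each on its own range) of the kept B cell, CD8 and NK, and globin probes by replicate, G-CSF in red on the left and Naive in dark on the right. Both globins peak at replicate 1 in G-CSF (10.34 for Hba-a1) and at replicate 2 in Naive, while Fcmr and Cd79b vary little.

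Side by side, the lineages had different high arrays. Within Naive, calprotectin genes were highest on replicates 1 and 3, C1q, Hmox1 and the adaptor genes on replicate 1, Klrd1 on replicates 1 and 2, and globins on replicate 2. Within G-CSF, S100a8 and both globins were highest on replicate 1, and 5 of 8 monocyte and macrophage probes on replicate 3, the array with the highest median raw intensity. Over all kept probes G-CSF replicate 3 was the highest of its group for 27.3% and Naive replicate 1 of its group for 30.5%. Platelet genes (10 probes) and progenitor genes (9 probes) were not detected on any array.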

How the data were processed

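RNA of 8 sorted regulatory T cell samples was read on Illumina bead arrays. Per the file headers, the first deposited table holds non-normalised probe intensities with detection p-values. The submitters' processing notes name GenomeStudio. The second deposited table holds log2 values; recomputing them showed quantile normalised log2 intensities, centred on the median of each probe, and they served as an alternative. Detection p-values were joined to intensities by rank order, which sets no sample's group. Normalisation was by neqc in limma 3.58.1 (R 4.3.3): normexp background from the p-values, an offset of 16, quantile normalisation, then log2. Probes with a detection p under 0.01 on at least 4 arrays of any group were kept (10205 of 25697). Groups were compared in limma (lmFit, then eBayes) with Benjamini-Hochberg adjustment over all kept probes and a threshold of 0.05; the procedure was tested on simulated data. The number of arrays limits the precision. Arrays correlated at 0.947 to 0.993 and none was a copy of another.

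GEO's platform annotation gave 23978 probes 1 symbol, 0 several and 1719 none, and 23962 matched RefSeq's GRCm38.p6 table. All members are named, with values for every kept probe. Of each further list at most 3 genes are named, those with the smallest p, besides genes stated as named later. The members and lists were chosen with earlier results of these data known. The alternatives tried were 2 other background settings, scaling by the median, the deposited log2 values, 3 other filters, the p-values as placed, weights per array, a block for the replicate number, each array left out, and the 2 brightest left out.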

Additional observations from a re-analysis of the deposited data

Results flagged for a closer look

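In 38 groups of 4 arrays (19 probes in 2 groups), a value lay far from the other 3 in 5, where chance gives about 1 in 20. In Naive these were all replicate 1: Tyrobp (log2 intensity 8.03, others 6.53 to 6.76), C1qb (9.46, others 7.71 to 7.78) and Hmox1 (8.80, others 6.63 to 7.0). In G-CSF they were replicate 4 for C1qa (7.15, others 6.86 to 6.91) and replicate 1 for Hba-a1 (10.34, others 8.85 to 9.08).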

How the results depend on the processing

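Of the changes recomputed for the 19 probes, 326 kept their direction and side of the threshold, 16 passed it newly, 11 lost it and 5 reversed. The reversals were Cd79b (brighter probe) at 0.27 under median scaling, Cd8b1 (dimmer probe) at -0.12 with array weights, Fcer1g at -0.10 without Naive replicate 3 and -0.05 without Naive replicate 4, and Tyrobp at 0.017 without Naive replicate 1. Leaving out single arrays moved Fcer1g between -0.10 and 0.65 and Tyrobp between -0.49 and 0.017. The count of called member probes, 1 of 19, was 0 without a filter, with a detection p under 0.05, with the replicate block and without the 2 brightest arrays, 11 with array weights, and 0 to 6 with single arrays left out. Over all probes, 224 were called, against 856 with median scaling (810 higher and 46 lower, with the median of all probes moved by 0.29), 4 without a filter, 48 with a detection p under 0.05, 4 with the replicate block, 3776 with array weights, 0 without the 2 brightest arrays (limma; 1439 at an unadjusted p under 0.05) and 1 to 1089 with single arrays left out. Median scaling called Hbb-bt higher (1.19, limma adjusted p = 0.0427), though it passed the filter through the G-CSF arrays and was not detected on Naive replicates 3 and 4. The difference in detected member probes per array, -1, ran from -1.58 to 0.417 with single arrays left out. With the p-values as placed it was 1, which was fixed in advance because the counts then change groups. Same-numbered arrays correlated at -0.12 to 0.18 in their deviations, and differently numbered ones at -0.29 to 0.31. These values cannot settle whether the numbers pair the samples, which the labels do not say. The causes were not tested.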
